A study of Mus musculus with 11 samples.

Results

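The genes described here are 7 homeobox transcription factors of the pituitary primordium, Hesx1, Lhx3, Lhx4, Pitx1, Six3, Six6 and Otx2. They were chosen by symbol, and each matched 1 gene among the 56941 genes of the count table. Their transcripts were measured in mouse pituitary cells isolated by fluorescence-activated sorting. There were 5 libraries labelled APC-mutant and 6 labelled wildtype, and the mutant titles also carry the word Lef1, with no explanation. The wildtype libraries have names starting with ROSAJC (replicates 1 to 4) or ROSAE (replicates 5 and 6), and the mutant ones with JS. Age, strain, Cre driver and sorting gate are not given in the sources used here. Nor is it stated that each library is a different animal, and the spread behind every p-value may thus be technical.

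The anterior pituitary grows from Rathke's pouch, a pocket of oral ectoderm that lies against the floor of the developing brain. Signals of the BMP, FGF, WNT and hedgehog families pattern the pouch, and homeobox factors carry that pattern into growth and cell fate. In mice, HESX1, SIX3 and SIX6 act mainly as repressors, whereas PITX1, LHX3, LHX4 and OTX2 mainly activate genes. Also in mice, beta-catenin, which APC helps to destroy, has been reported to take part in repressing Hesx1 and in switching on Pou1f1, a factor of hormone cell lineages.

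Total counts ran from 18082332 to 27280761 in the mutant libraries and from 15740857 to 25414443 in the wildtype libraries. Levels are CPM after trimmed-mean scaling, that is, counts scaled to a common library total, and a zero count allows up to 3 counts, or 0.114 to 0.198 CPM depending on the library. Such limits cover counting error only. Markers of several cell types differed between the groups. Summed over 12 endocrine cell markers, all called lower, levels were 269 to 1944 CPM in mutant and 61663 to 95880 CPM in wildtype libraries. The sums over 10 endothelial markers, all called higher, were 4653 to 6922 CPM in mutant and 16.2 to 103 CPM in wildtype libraries. The other sums were 784 to 3551 against 117 to 293 CPM for mesenchymal markers, 161 to 1394 against 20.5 to 61.7 CPM for macrophage markers, and 2082 to 3986 against 3.07 to 35.9 CPM for erythroid markers, each time in mutant against wildtype libraries. Of these markers 10 of 10, 10 of 10 and 7 of 8 were called higher, and the erythroid gene Slc4a1 had no count in wildtype libraries. Among 12 markers of pituitary stem cells, 4 were called higher and 3 lower in mutant cells. In bulk RNA, fewer cells of a type and less RNA per cell cannot be told apart, and the part of these differences in the results was not tested. A batch tied to the library name prefixes and the genotype cannot be told apart.

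Of the 7 genes, Hesx1 was called higher in APC-mutant cells, Lhx3, Lhx4, Pitx1, Six3 and Six6 were called lower, and Otx2 was not called. All 7 passed the filter on low counts, but Lhx4 only through its wildtype counts. The Pitx1 call held under 11 of 20 alternative settings. In edgeR's quasi-likelihood test over 20622 genes, at a Benjamini-Hochberg adjusted p under 0.05, 59.2% of all genes were called, 30.7% higher and 28.5% lower. The mutant and wildtype libraries did not overlap for 4 of the 7 genes, 1 higher and 3 lower, where 43% of all tested genes had no overlap, 23% higher and 20% lower. The median log2 fold change (mutant minus wildtype) of the 7 genes was -1.63, beside 0.02 over all genes tested.

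**Figure D1:**
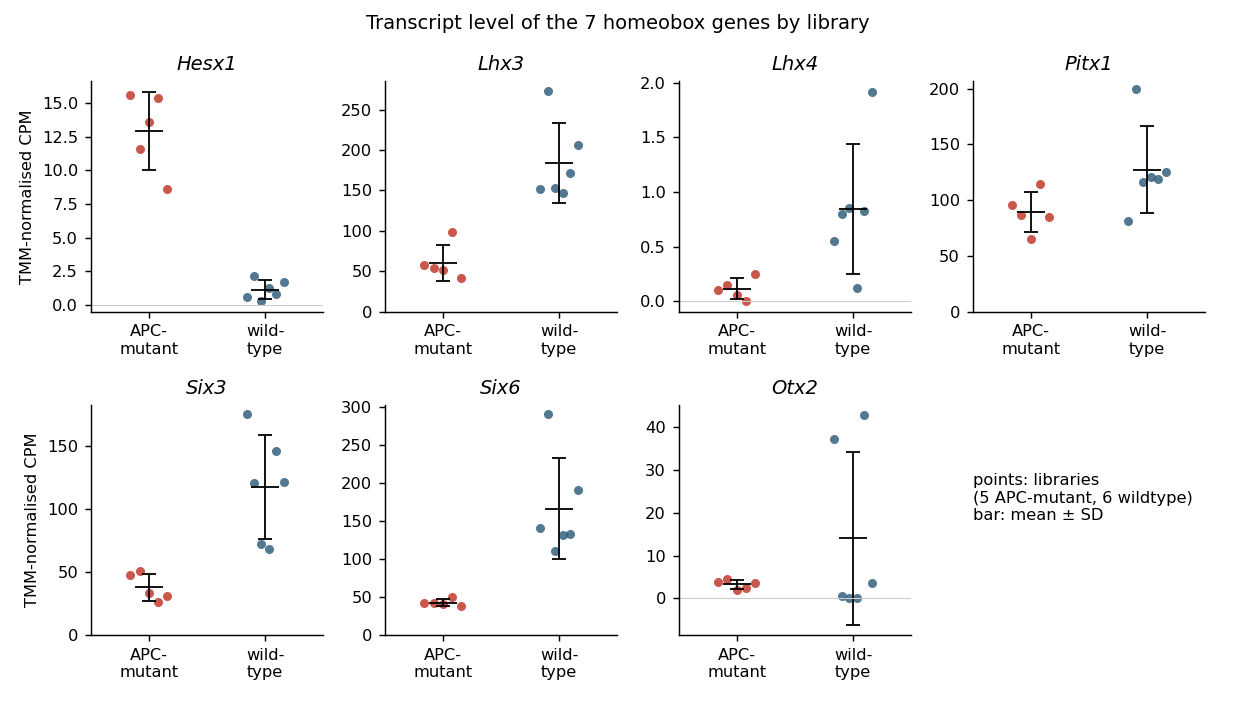
Level of each gene in every library, in CPM after trimmed-mean scaling (vertical axes start at or below 0), for 5 APC-mutant libraries (red, left) and 6 wildtype libraries (blue, right), with mean ± SD as bars. The mutant points of Hesx1 lie above all wildtype points, those of Lhx3, Six3 and Six6 lie below them, and Otx2 is spread widely in the wildtype group.

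Hesx1 encodes a paired-like homeodomain repressor that is among the earliest markers of the pouch and is switched off as the mouse pituitary differentiates. It lies on chromosome 14 at 26716373 to 26724286 (GRCm39, plus strand), and none of its exonic bases overlap another gene. APC-mutant replicates 1, 2, 4, 5 and 6, the order kept for every gene, gave Hesx1 levels of 15.6, 11.6, 13.6, 15.4 and 8.63 CPM. In the wildtype libraries the lowest was 0.264, the median 1.02 and the highest 2.16 CPM. These wildtype levels rest on 143 counts in all, 4 to 57 per library, so the fold change has a low base. Every mutant library was above every wildtype library. Group means were 13.0 ± 2.91 CPM in mutant (SD, n = 5) and 1.12 ± 0.726 CPM in wildtype cells (SD, n = 6). The log2 fold change was 3.49 ± 0.40 (SE), an 11.3-fold rise, with an adjusted p of 4.08e-06. It ranged from 3.18 to 3.79 over 20 alternative settings, and its call held in each of them.

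The upstream sequence of Hesx1 is shown because it was the gene that rose, and that of Lhx4, a LIM factor that fell, because it holds the TCF/LEF motif of WNT response. That of Otx2 is shown as the gene not called. Sequences are the 250 bases before the RefSeq start on GRCm38.p6, written 5′ to 3′ on the gene's strand, and capitals mark a matched motif. RefSeq promoters were found for 6 of the 7 genes, 10 promoters in all.
Hesx1 (chr14:27000112-27000361, plus strand): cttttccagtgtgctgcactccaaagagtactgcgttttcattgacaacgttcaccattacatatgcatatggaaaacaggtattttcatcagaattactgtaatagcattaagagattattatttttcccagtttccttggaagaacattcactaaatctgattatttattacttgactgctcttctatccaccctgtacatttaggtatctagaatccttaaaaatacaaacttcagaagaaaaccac
Lhx4 (chr1:155742028-155742277, minus strand): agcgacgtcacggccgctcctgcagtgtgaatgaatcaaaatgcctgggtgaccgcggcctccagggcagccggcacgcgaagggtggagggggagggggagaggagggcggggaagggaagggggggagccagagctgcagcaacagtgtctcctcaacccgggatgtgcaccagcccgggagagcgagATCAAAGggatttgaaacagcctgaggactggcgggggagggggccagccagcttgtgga
Otx2, first of 4 starts (chr14:48667645-48667894, minus strand): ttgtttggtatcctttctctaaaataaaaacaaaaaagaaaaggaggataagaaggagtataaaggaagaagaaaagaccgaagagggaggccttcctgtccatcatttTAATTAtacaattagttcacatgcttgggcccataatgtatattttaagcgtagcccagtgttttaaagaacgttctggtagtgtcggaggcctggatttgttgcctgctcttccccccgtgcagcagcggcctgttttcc
The motifs searched on both strands were CTTTGAT for TCF/LEF factors, TAATCC for PITX and OTX factors, and TAATTA for homeodomains in general, which reads the same on both strands. The Hesx1 window held none of the 3 motifs. Lhx4 held the TCF/LEF motif, in the reverse orientation, beginning 60 bases before the start, a motif found in 3.21% of all 32851 promoter windows. The first Otx2 window held TAATTA beginning 141 bases before the start, and another Otx2 window held it at 3 places and TAATCC at 1. All 250 bases of that other window lie in annotated exons, and some further windows overlap exons too. TAATTA occurs in 4.84% and TAATCC in 6.25% of all windows, and the windows of Lhx3, Six3 and Six6 held no match. GC content was 34% for Hesx1 and 66% for Lhx4, beside a median of 52.4% over all windows. A match is a description of the letters and not a site of binding.

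Six3 and Six6 were both lower in mutant cells, and for neither gene did the groups overlap. SIX3 and SIX6 are close relatives that repress genes in the early forebrain, eye and pituitary, and SIX3 holds down Wnt1 in the mouse forebrain. Six6 (chromosome 12, 72986666 to 72991673) had 42.2, 42.8, 42.0, 49.97 and 38.4 CPM in the mutant libraries. Its wildtype values had a lowest of 112, a median of 137 and a highest of 291 CPM. The mutant values varied little, with a coefficient of variation of 9.85%, against 39.9% in wildtype. The means were 43.1 ± 4.24 CPM in mutant and 167 ± 66.4 CPM in wildtype cells, a log2 fold change of -1.95 ± 0.22 (SE) with an adjusted p of 3.56e-06. Six3 (chromosome 17, 85921036 to 85936730) gave mutant levels of 48.0, 51.2, 33.6, 26.2 and 31.0 CPM. The wildtype lowest was 68.6, the median 121 and the highest 175 CPM. All 5 mutant libraries lay below all wildtype libraries, with means of 38.0 ± 10.99 CPM in mutant and 117 ± 41.5 CPM in wildtype cells. Six3 changed by -1.63 ± 0.26 log2 units (SE, adjusted p = 8.33e-05). The 2 highest wildtype values of Six3, 175 and 146 CPM, were those of wildtype replicates 1 and 5, and without both libraries the change was -1.37 (adjusted p = 0.000381), a setting added after the data were seen.

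The ratio of Six3 to Six6 was compared within libraries. The log2 ratio of Six3 to Six6 averaged -0.22 ± 0.48 in mutant and -0.51 ± 0.61 in wildtype libraries (SD). The difference of 0.28 did not pass (exact two-sided permutation test, p = 0.407, adjusted over 4 pairs p = 0.814), which does not show that the pair fell alike. Six2, a relative next to Six3 on the chromosome, was called lower as well and averaged 35.0 ± 7.02 CPM in mutant and 67.2 ± 13.3 CPM in wildtype cells (-0.94 ± 0.16, adjusted p = 0.000212). Six3os1, an antisense transcript that shares 106 bases with Six3, did not pass, with a log2 fold change of -0.41 ± 0.36 (adjusted p = 0.348). Its wildtype values ranged from 32.2 to 140.2 CPM and were highest in wildtype replicates 5 and 1. Gm28528, also antisense and sharing 168 bases with Six3, was called lower (-1.96 ± 0.24, adjusted p = 6.98e-06). So was 4930447C04Rik, antisense to Six6 (-1.55 ± 0.22, adjusted p = 2.67e-05).

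The LIM-homeodomain genes Lhx3 and Lhx4 were both called lower. LHX3 is needed for growth of the mouse pouch and, with PITX1, activates hormone genes, while LHX4 supports survival and expansion of pouch cells. Lhx3 (chromosome 2, 26090224 to 26098301) had 57.3, 54.1, 51.7, 98.8 and 41.6 CPM in the mutant libraries. The wildtype lowest was 147, the median 162 and the highest 274 CPM. The mutant libraries were all lower, and APC-mutant replicate 5 stood above the other 4. Means were 60.7 ± 22.1 CPM in mutant and 184 ± 48.9 CPM in wildtype cells, or -1.60 ± 0.23 on the log2 scale (SE, adjusted p = 2.93e-05). Without APC-mutant replicate 5 the change was -1.84. Lhx4 (chromosome 1, 155573777 to 155627430) was barely detected in either group. It had 11 counts over the 5 mutant libraries and 102 over the 6 wildtype libraries. It reached at most 0.254 CPM in mutant libraries, while in wildtype libraries the lowest was 0.120, the median 0.812 and the highest 1.92 CPM. The groups overlapped through wildtype replicate 4, which was the lowest. Lhx4 changed by -2.88 ± 0.73 log2 units (SE, adjusted p = 0.00345), and -3.56 against the ROSAE wildtype libraries alone. Lhx4 reached the filter's level of 0.512 CPM in 5 wildtype libraries and 0 mutant libraries, so it was tested through its wildtype counts alone. It fell below the filter and had no test when any of wildtype replicates 1, 2, 3, 5 and 6 was left out. Nor was Lhx4 tested against the ROSAJC libraries alone (mean 0.581 CPM, against 1.37 CPM in ROSAE) or under a stricter filter. Without a filter it was -2.86 (adjusted p = 0.00528). Within the pair of Lhx3 and Lhx4 the difference of the log2 ratios between genotypes was -0.17 (exact permutation p = 0.703, adjusted p = 0.818), and it was 0.75 at a pseudocount of 0.05 CPM and -0.94 at 1 CPM, in place of 0.25 CPM.

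Pitx1 encodes a factor present throughout the oral ectoderm and the pituitary, where it drives hormone promoters. Its gene (chromosome 13, 55972864 to 55984005) shares 10.3% of its exonic bases with 2 other genes, Gm47071 and Gm28760. Reads of the shared bases cannot be separated without strand for Gm47071, on the other strand, nor for Gm28760, on the same strand, even with it. Pitx1 was at 95.7, 87.1, 64.7, 115 and 84.5 CPM in the mutant libraries. Wildtype values had a lowest of 81.5, a median of 119.6 and a highest of 200.1 CPM, so the groups overlapped. Means were 89.3 ± 18.1 CPM in mutant and 127 ± 39.1 CPM in wildtype cells. Pitx1 changed by -0.51 ± 0.20 log2 units (SE, adjusted p = 0.0378). This call was near the cut-off and held under 11 of 20 alternative settings. It was lost on leaving out any of mutant replicates 1, 2, 4 and 6 (-0.53, -0.50, -0.41 and -0.49), or wildtype replicate 2 (-0.34) or 6 (-0.52), and against the ROSAJC or the ROSAE libraries alone (-0.58 and -0.44).

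**Figure D2:**
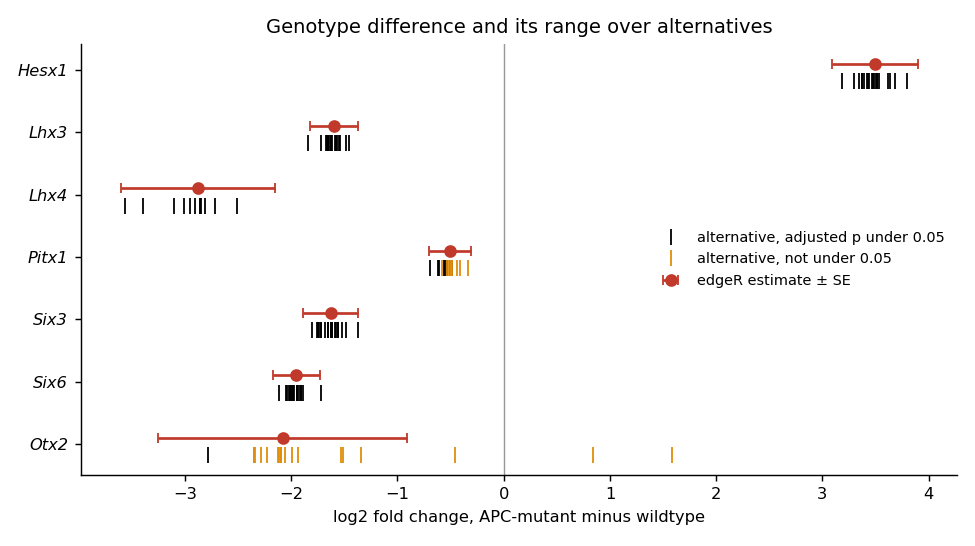
Log2 fold change of each gene, APC-mutant minus wildtype (horizontal axis), as the edgeR estimate ± SE (red) with a tick for every alternative setting, black where the adjusted p was under 0.05 and orange where it was not. The ticks of Hesx1 are all above 3, the calls of Pitx1 come and go around -0.51, and the ticks of Otx2 lie on both sides of 0.

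Otx2 encodes a bicoid-class factor of the anterior head that activates Hesx1 and Pou1f1 promoters in cultured cells, and in the pituitary region it is known from both the pouch and the overlying infundibulum. Otx2 (chromosome 14, 48895134 to 48911276) had 3.78, 4.63, 1.94, 2.56 and 3.70 CPM in the mutant libraries. Wildtype replicates 1 to 6 had 37.2, 0.530, 0, 0.120, 42.9 and 3.59 CPM. All mutant libraries held a low level, while the wildtype libraries split into 2 with high, 1 with a similar and 3 with lower values. The coefficient of variation was 144% in wildtype cells and 32.2% in mutant cells. Means of 3.32 ± 1.07 CPM in mutant and 14.1 ± 20.3 CPM in wildtype cells did not differ beyond that spread (-2.08 ± 1.17, adjusted p = 0.144). Without wildtype replicates 1 and 5, a setting added after the data were seen, the direction turned to 1.59 (adjusted p = 0.13), and under limma-voom it was 0.84 (adjusted p = 0.609). Against the ROSAE libraries alone, 2 libraries of which wildtype replicate 5 is the high one, the change was called, at -2.78 (adjusted p = 0.00737).

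Other genes were high in the same wildtype libraries as Otx2. Among 12415 genes ranked by likeness over the 11 libraries, the closest to Otx2 was Rax, a homeobox gene of the infundibulum and retina (Pearson r = 0.971 on the log2 scale, n = 11). Rax had 5.22, 7.54, 2.43, 2.33 and 3.60 CPM in the mutant libraries, and 39.0, 1.21, 0.594, 1.02, 59.4 and 6.79 CPM in wildtype replicates 1 to 6. Its wildtype maxima were in the libraries where Otx2 was highest. Nkx2-4 (r = 0.954) and the matrix proteoglycan gene Prelp (r = 0.954) came next. The summed level of 10 posterior lobe and glial markers, a list that includes Rax, was 93.3 to 188 CPM in mutant libraries. It was 432 and 498 CPM in wildtype replicates 1 and 5 and 33.7 to 116.5 CPM in the other wildtype libraries. None of those 10 markers was called between genotypes (edgeR, 0 at an adjusted p under 0.05 and 3 at an unadjusted p under 0.05). The sum over 10 retina and hypothalamus markers was 4.59 to 8.91 CPM in mutant and 1.78 to 64.7 CPM in wildtype libraries, and of the 2 tested neither was called. That list holds Rax as well, which made up 59.4 of the 64.7 CPM. No other member of it averaged above 1.39 CPM in mutant or 0.867 CPM in wildtype cells. The part of the posterior lobe and glial markers in the Otx2 values was not tested.

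**Figure D3:**
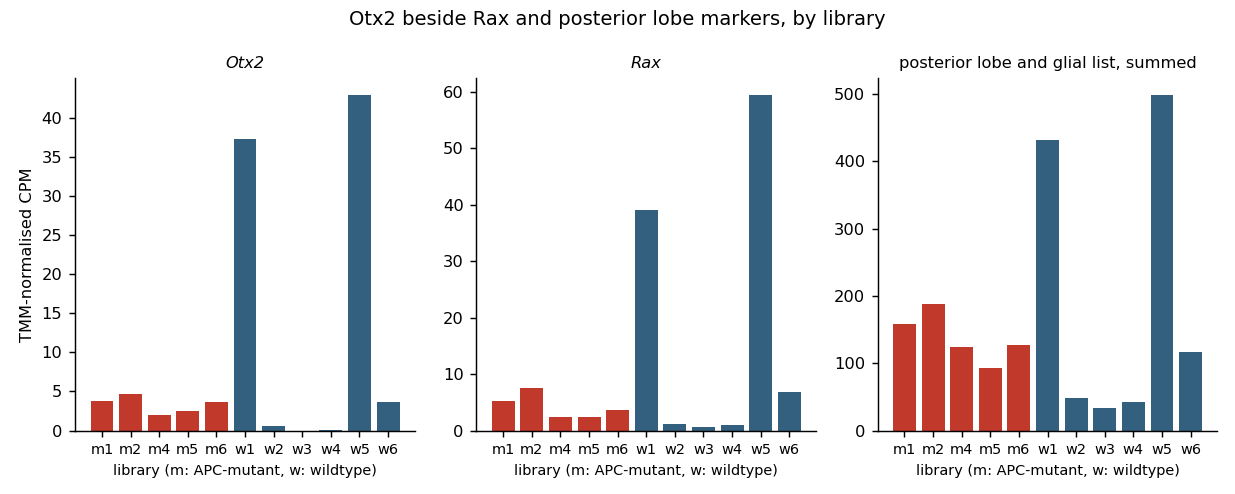
Level in CPM of Otx2 (left), Rax (middle) and the summed posterior lobe and glial list (right) in 5 APC-mutant libraries (red, m and replicate number) and 6 wildtype libraries (blue, w and replicate number). In all 3 panels the bars of wildtype replicates 1 and 5 are the tallest, for Otx2 at 37.2 and 42.9 CPM.

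Otx1, the relative of Otx2, was near the detection limit, at 1.10 ± 0.651 CPM in mutant and 0.698 ± 0.630 CPM in wildtype cells, and was not called (0.64 ± 0.73, adjusted p = 0.476). The log2 ratio of Otx2 to Otx1 differed by -0.38 between genotypes (exact permutation p = 0.818, adjusted p = 0.818). Otx2os1, the antisense neighbour that shares 154 bases with Otx2, had 6 counts in mutant and 35 in wildtype libraries and was not tested. Of 7 choroid plexus markers, chosen because OTX2 is strongly expressed there, 6 were tested, 2 were called higher and 4 lower. The defining marker Ttr had 0.239 ± 0.0646 CPM in mutant and 6.71 ± 1.71 CPM in wildtype cells. Clic6 and Aqp1 went the other way, with 60.3 ± 17.3 and 13.9 ± 4.001 CPM in mutant cells, against 17.2 ± 7.36 and 0.900 ± 0.550 CPM in wildtype cells.

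Per kilobase of exon, Hesx1 moved most places in the order of the 7 genes. In mutant cells the order of mean levels was Pitx1 (33.6), Lhx3 (19.9), Six6 (10.7), Hesx1 (10.4), Six3 (6.98), Otx2 (0.787) and Lhx4 (0.0198 CPM per kb). In wildtype cells it was Lhx3 (60.4), Pitx1 (47.9), Six6 (41.6), Six3 (21.6), Otx2 (3.33), Hesx1 (0.899) and Lhx4 (0.147 CPM per kb). The ranges of neighbours in the mutant order overlapped between Pitx1 and Lhx3, between Six6 and Hesx1 and between Hesx1 and Six3. In the wildtype order they overlapped for every step except that from Six3 to Otx2. In mutant cells the range of Hesx1, 6.91 to 12.5 CPM per kb, overlapped those of Six6 (9.57 to 12.5) and Six3 (4.81 to 9.40), and in wildtype cells it lay below both.

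**Figure D4:**
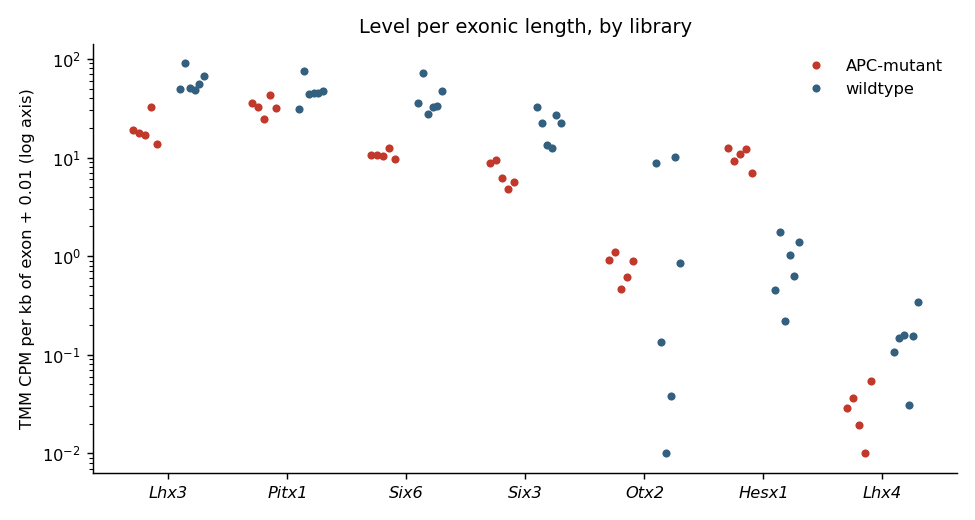
Level per exonic length (CPM per kb plus 0.01, log axis) of each gene in every library, APC-mutant in red left of wildtype in blue, with genes ordered by their wildtype mean. Hesx1 is the gene whose mutant points stand higher than its wildtype points, near 10.4 against 0.899 CPM per kb on average.

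The libraries within a genotype did not vary alike for all genes. In the mutant group, replicate 5 had the highest Lhx3, Pitx1 and Six6 and the lowest Six3 and Lhx4. That library also had the lowest mesenchymal sum, 784 CPM against 2158 to 3551 CPM in the other mutant libraries, and the lowest posterior lobe sum, 93.3 CPM. In the wildtype group, replicate 2 had the highest Lhx3, Pitx1, Six6 and Hesx1. A link between these values was not tested.

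By likeness of profile over the 11 libraries, with every gene ranked against 12415 or 12416 others, the closest genes to Hesx1 were Carnmt1 (r = 0.989), Ccny (0.986) and Zfp69 (0.982). Closest to Lhx3 were Stx18 (0.984), Misp (0.983) and Phgdh (0.979), and to Six6 Tex9 (0.989), Gpn3 (0.988) and Nol12 (0.983). Six3 was closest to Lmo4 (0.968), Dtna (0.965) and Mmd2 (0.963), Lhx4 to Gnal (0.927), Cox18 (0.915) and Cbx8 (0.914), and Pitx1 to Ddit4l (0.915), Ldah (0.906) and Nefl (0.899). All points share the same libraries, and any gap between the genotypes enters r. An r of at least 0.95 was reached by 140 genes for Hesx1 and 124 for Six6, but by 0 for Pitx1 and Lhx4.

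Relatives of the same homeobox classes moved both ways. Of 24 listed LIM, sine oculis and paired-like genes 15 were tested, 3 were called higher and 6 lower, with a median log2 fold change of -0.69. The counts of this and the other gene lists stand beside 30.7% called higher and 28.5% called lower over all genes tested. Alx4 and Lhx6, called higher, are genes of facial and oral mesenchyme. Alx4 averaged 7.13 ± 2.28 CPM in mutant and 0.120 ± 0.132 CPM in wildtype cells (5.83 ± 0.55, adjusted p = 5.56e-07). Lhx6 stood at 16.5 ± 4.92 CPM in mutant and 1.45 ± 0.803 CPM in wildtype cells (3.51 ± 0.37, adjusted p = 1.55e-06). The sum over mesenchymal markers was higher in the same libraries, as given above, and its part was not tested. Gsc, a paired-like gene of the early embryo, had 2 counts over the mutant and 131 over the wildtype libraries (adjusted p = 3.29e-05). It reached at most 0.102 CPM in mutant libraries, below the filter's level of 0.512 CPM, and was tested through its wildtype counts alone. Alx4, at most 0.345 CPM in wildtype libraries, was likewise tested through its mutant counts alone.

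Among 17 other transcription factors of the pouch 2 were called higher and 10 lower, with a median of -1.12. The lineage factor genes Pou1f1 and Tbx19 had 0.389 ± 0.298 and 1.16 ± 0.968 CPM in mutant cells, against 307 ± 135 and 327 ± 83.5 CPM in wildtype cells. Eya1, whose product works with homeodomain factors of the sine oculis family, averaged 32.2 ± 5.86 CPM in mutant and 107 ± 13.2 CPM in wildtype cells (-1.73 ± 0.14, adjusted p = 8.7e-08). Nr5a1, of the gonadotrope lineage, changed by -4.84 ± 0.42 (adjusted p = 2.69e-07). The genes that ran the other way were Gata2 (1.92 ± 0.35) and Hes1, a NOTCH target (1.24 ± 0.21).

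Genes that encode co-factors of these proteins split evenly, with 8 called higher, 8 lower and 8 not called among 24, and a median of -0.01. That split is near the one over all genes, 30.7% higher and 28.5% lower. LDB and SSBP proteins bridge LIM-homeodomain factors, LMO proteins compete with them for LDB, and TLE proteins serve HESX1, SIX3 and SIX6 as co-repressors. Lmo2, a gene also active in blood and endothelial cells, averaged 337 ± 57.9 CPM in mutant and 5.31 ± 2.46 CPM in wildtype cells (5.99 ± 0.28, adjusted p = 6.95e-10). Ldb2 rose by 2.33 ± 0.13 (adjusted p = 3.5e-09) and Ssbp4 by 1.15 ± 0.09 (adjusted p = 7.28e-08). Tle1 was called higher and Tle4 lower, at 0.65 ± 0.12 and -0.95 ± 0.11 (adjusted p = 0.000425 and 4.35e-06), a pair chosen after the values were seen. Of the other Tle genes listed, Tle3 and Tle6 were called higher (0.50 and 0.70), Tle5 was called lower (-0.42) and Tle2 was not called. The endothelial sum given above was higher in the same libraries, and its part in the Lmo2 and Ldb2 values was not tested.

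Signals that pattern the pouch were called higher for 9 of 17 genes and lower for 3, with a median of 0.61. Bmp4, which starts pouch formation in mice, averaged 175 ± 32.2 CPM in mutant and 4.86 ± 2.23 CPM in wildtype cells. Bmp2 rose by 3.20 ± 0.22 and Shh, a hedgehog ligand of the oral ectoderm, by 5.83 ± 0.62, and Bmp7 averaged 81.7 ± 19.4 CPM in mutant and 20.4 ± 2.56 CPM in wildtype cells (adjusted p between 2.89e-09 and 1.8e-06 for these 4 genes). The genes called lower were Chrd, which encodes a BMP antagonist (-2.03), Wnt4 (-1.20) and Fgf10 (-2.94), which signals from the infundibulum to maintain the mouse pouch. Fgf10 was 7.99, 13.5, 7.35, 1.41 and 3.70 CPM in the mutant libraries, against 132, 1.06, 1.06, 5.16, 154 and 17.3 CPM in wildtype replicates 1 to 6. The high wildtype replicates 1 and 5 were also those with most Otx2, and without both the Fgf10 difference was 0.12 (adjusted p = 0.909), so its call (adjusted p = 0.0414) depended on them. That call was also lost on leaving out either of them or any of mutant replicates 1, 4, 5 and 6, in fits added after the data were seen (-3.00 to -2.22).

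All 11 lineage genes listed as targets of PITX1 and LHX3, among them hormone genes, were called lower, with a median of -8.06. Gh, the growth hormone gene, had 224 counts over the mutant and 5795714 over the wildtype libraries, and Prl 3 counts over the mutant libraries and 38587 over the wildtype libraries. Pomc, Tshb and the other hormone genes of the list fell with them. All genes of this list except Gnrhr are also among the endocrine markers or pouch factors above, so it is not a separate result. The endocrine marker sum given above was lower in the same libraries, and its part was not tested. Epithelial genes among the stem cell markers did not move one way. Epcam was called lower (-1.57 ± 0.15, adjusted p = 8.06e-07) and Cdh1 higher (0.53 ± 0.21, adjusted p = 0.0479), while Krt8 (0.28) and Krt18 (-0.38) were not called.

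**Figure D5:**
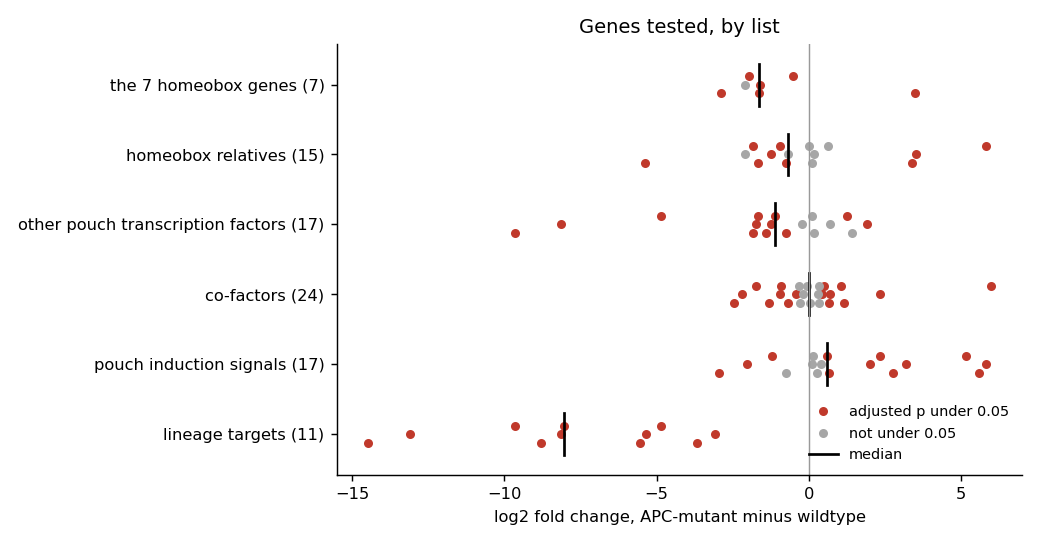
Log2 fold change, APC-mutant minus wildtype, of every tested gene in 6 lists (rows, number tested in brackets), in red where the adjusted p was under 0.05 and grey where it was not, with the list median as a black line. The 7 homeobox genes have a median of -1.63 with Hesx1 alone on the right, and the lineage targets a median of -8.06.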

How the data were processed

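RNA of sorted mouse pituitary cells was amplified with a SMARTer kit, enriched for poly(A) and sequenced on an Illumina NovaSeq, per the labels' protocols. The deposited values are raw counts of read pairs by gene, from featureCounts 2.0.1, per the file headers, over GENCODE M33 on GRCm39, without strand. Trim Galore 0.6.5 and STAR 2.7.9a are named in the submitters' processing notes.

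Genes were tested with edgeR 4.0.16 (filterByExpr, trimmed-mean scaling, quasi-likelihood F test, genotype alone), with calls at an adjusted p (Benjamini-Hochberg) under 0.05 over all 20622 genes tested. SE was derived from the fold change and F. Ratios within 4 pairs of relatives used log2(CPM + 0.25) and exact permutation tests, adjusted over the 4, and some genes and a ratio are not reported here. Alternatives were DESeq2 1.42.0, limma-voom 3.58.1, other scaling and filters, left-out libraries, wildtype subsets and a replicate block. Promoters come from RefSeq on GRCm38.p6. The members, the 15 gene lists and the naming rule (per list, up to 4 genes of smallest p and those against the majority; per member, the 3 most alike genes averaging 5 CPM or more) were chosen with earlier results of these data known.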

Additional observations from a re-analysis of the deposited data

Results flagged for a closer look

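In 2 of 14 groups of libraries 1 value stood far from the others by Dixon's test, which chance alone marks in about 1 of 20 groups. Lhx3 was 98.8 CPM in APC-mutant replicate 5, against 57.3 CPM in the next mutant library, a gap of 0.726 of the group's range. Pitx1 was 200.1 CPM in wildtype replicate 2, against 125.7 CPM in the next wildtype library, a gap of 0.628 of the range.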

How the results depend on the processing

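The calls of Hesx1, Lhx3, Six3 and Six6 held under all 20 alternatives, and that of Lhx4 under the 12 that gave a value. The remaining settings left Lhx4 below the filter, which it passed only through its wildtype counts, and could not test its call. Over all genes 8844 to 13867 were called, beside 12218 of 20622 tested as reported. The numbers tested differed too: the 8844 were of 14064 under the stricter filter, and the 13867 of 38581 without a filter. Pitx1 was -0.62 to -0.34 with single libraries left out, and lost its call against ROSAJC (-0.58) or ROSAE (-0.44) libraries alone. With a replicate block it was -0.50 (adjusted p = 0.0711) and 10711 genes were called. Same-numbered libraries deviated from their group means with correlations of -0.15 to 0.05. A low correlation cannot show whether the numbers pair the libraries, and the labels do not say. Otx2 turned to 0.84 under limma-voom and to 1.59 without wildtype replicates 1 and 5, and was called against ROSAE alone (-2.78). Without single libraries it was -2.35 to -1.34. Fgf10 turned to 0.12 without wildtype replicates 1 and 5. The log2 ratio difference of Lhx3 to Lhx4 was -0.94 at a pseudocount of 1 CPM (adjusted p = 0.039), 0.75 at 0.05 CPM, 0.42 against ROSAE alone, and -0.49 to 0.0726 without single libraries. That of Otx2 to Otx1 was 0.79 against ROSAJC alone, 1.94 without wildtype replicates 1 and 5, and -1.09 to 0.72 without single libraries. The cause was not tested. At these depths Lhx4, at most 1.92 CPM, had 0 to 5 counts per mutant library and 2 to 39 per wildtype library. The part of counting error in its values was not tested.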

Other observations

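Genes beside the homeobox genes on the chromosome were read as a description. Il17rd, an FGF signalling inhibitor gene 36612 bases from Hesx1, averaged 23.1 CPM in mutant and 13.1 CPM in wildtype cells (0.82 ± 0.14, edgeR adjusted p = 0.000135). Appl1, on the other side of Hesx1, was called lower (-0.25, adjusted p = 0.0393). Qsox2, 348 bases from Lhx3, was called lower (-1.37 ± 0.16, adjusted p = 4.13e-06).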
